A study of Rattus norvegicus with 25 samples.

Results

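RNA sequencing of the medial prefrontal cortex was used to compare rats at postnatal day 70 (P70, young adults) with rats at postnatal day 35 (P35, adolescents). The libraries were chosen by the age in their labels, 5 from P70 and 5 from P35, which made 10 of the 25 libraries of the study. All came from wild-type rats of the outbred Wistar strain, and the labels give neither sex nor treatment. The remaining libraries, 5 each from P8, P14 and P21 of the same strain and genotype, served to estimate the spread. Of the 29516 gene IDs in the deposited table, 14128 were tested, namely those at 1 FPKM or more in at least 5 of the 25 libraries. FPKM, the number of fragments of a gene divided by the length of its transcript and by the size of the library, is a relative level that can be compared between genes. Nothing in the labels ties a library to an animal of its own, so every p-value measures the spread between these libraries, which may be technical.

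The medial prefrontal cortex lies at the front of the brain near the midline and serves planning, working memory and the control of behaviour. It is among the last cortical areas to mature. During adolescence its excitatory synapses are pruned, its inhibitory circuits and dopamine input mature and its axons go on being myelinated. RNA from a piece of tissue pools neurons, glia and vessel cells, so fewer cells of a type and less RNA per cell cannot be told apart.

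The genes are given by their Ensembl rat gene IDs, as deposited. The table holds no gene names and 0 IDs matched the RefSeq table of the rat, so the function of each gene is not given, and the labelled tissue was not checked against marker genes.

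The 10 libraries lay as far apart within an age as between the ages. The median absolute log2 difference over tested gene IDs, on log2(FPKM + 0.5), had a median of 0.214 over the 25 pairs of different age (0.148 to 0.443). Over the 20 pairs of the same age it was 0.236 (0.133 to 0.424). The nearest library was of the same age for 7 of 10 libraries, but only 2 of 10 were closer on average to their own age than to the other. Each title carries a first number whose meaning the labels do not give, and 4 pairs of the same age that shared it had a median of 0.188, against 0.251 for 16 pairs that did not. For 9467 of the 14128 gene IDs the FPKM values resolved into whole reads, which summed to between 2115923 (P70 replicate 2) and 5832544 (P35 replicate 3) per library. The sum of FPKM, the count of gene IDs that reached 1 FPKM (12693 to 13268) and the share of the 10 most abundant gene IDs (45.6% to 57.8%) gave an adjusted p of 0.794 each between the ages (exact two-sided permutation test, 5 against 5, Benjamini-Hochberg over the 3 measures).

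**Figure D1:**
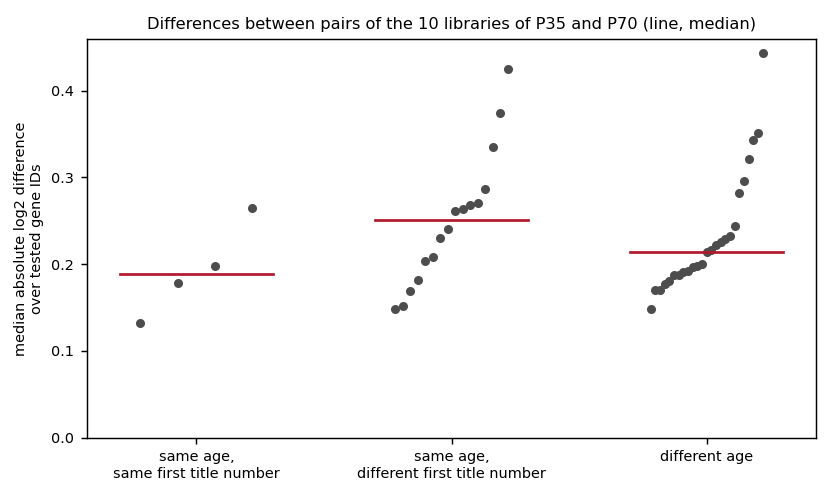
Each point is 1 pair of the 10 libraries, and the vertical axis is the median absolute difference of log2(FPKM + 0.5) over 14128 gene IDs. Pairs of different age (25 pairs, median 0.214) covered a range that overlapped that of pairs of the same age with different first title numbers (16 pairs, median 0.251), and lines mark the medians.

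From P35 to P70, 17 of 14128 gene IDs changed (0.12%; limma, adjusted p under 0.05 over all gene IDs tested). Of these 6 were higher at P70 (0.0425%) and 11 were lower (0.0779%). Before adjustment, 662 gene IDs (4.69%) had a p under 0.05, 346 of them higher and 316 lower at P70. With no change in any gene ID, about 5% would be expected, so the share in this fit is no excess. That number depended on the fit. Of the same 14128 gene IDs, 101 had a p under 0.05 with equal FPKM totals (limma, unadjusted). With the first title number as a block there were 362. There were 966 with median-of-ratios scaling and 1400 with library quality weights. The median log2 change was -0.02, and 87.9% of gene IDs differed by under 0.25 log2 units. With FPKM totals made equal between libraries the median log2 change moved by 0.101 and the split of calls was 1 higher and 6 lower. The count depended on the fit: 39 gene IDs were called with median-of-ratios scaling (14 higher, 25 lower), 65 with library quality weights (27 and 38), 5 with the first number of the library titles as a block (1 and 4) and 7 to 27 without 1 library (limma). The 17 fell into 7 falls of at least 1 log2 unit, 4 smaller falls and 6 rises, of which 1 reached 1 log2 unit. In 15 of the 17 the 5 libraries of one age did not overlap the 5 of the other, which held for 144 of all gene IDs tested (1.02%). Of the 17, 9 had mean levels under 5 FPKM at both ages. By mean over P35 and P70, 2 of 1047 gene IDs under 1 FPKM were called (0.191%). The share was 4 of 1869 from 1 to 2 FPKM (0.214%) and 3 of 3281 from 2 to 5 FPKM (0.0914%), against 0.12% of all. From 5 to 10 FPKM it was 2 of 2966 (0.0674%), and from 10 to 50 FPKM 2 of 4040 (0.0495%). It was highest at 50 FPKM and over, with 4 of 925 (0.432%).

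**Figure D2:**
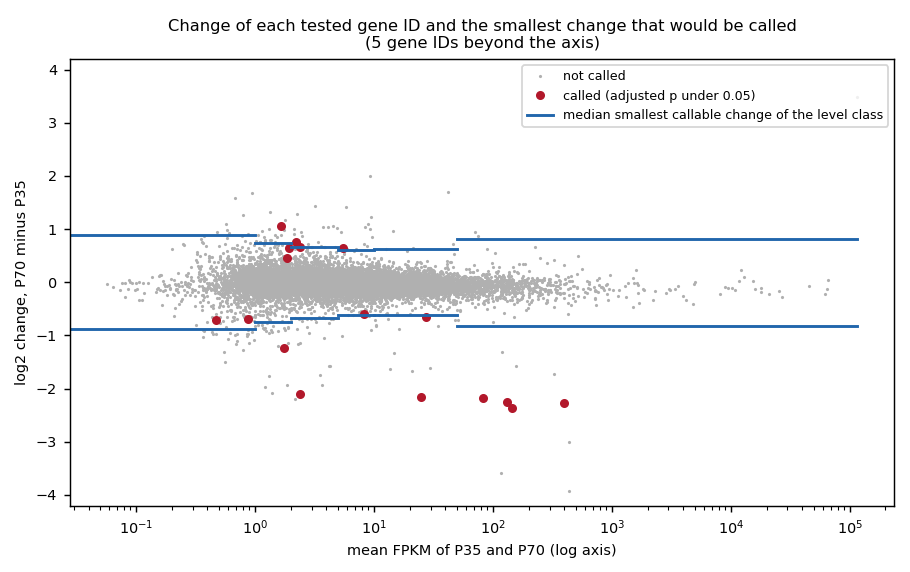
Each point is 1 tested gene ID, with its mean FPKM over P35 and P70 on a log axis and its log2 change, P70 minus P35, on the vertical axis. Red points are the 17 called gene IDs, blue lines are the median smallest change that would be called in each class of level, and 5 uncalled gene IDs lie below the axis.

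The 3 most abundant of the larger falls were already present in all younger ages and dropped at P70. ENSRNOG00000033465 stood at 535, 990.2, 560.0, 730.2 and 459 FPKM in P35 replicates 1 to 5 and at 167, 167, 86.3, 77.5 and 201 FPKM in P70 replicates 1 to 5. The lowest P35 library was more than 2 times as high as the highest P70 library. Its mean fell from 655 ± 212 to 139.7 ± 54.6 FPKM (SD, n = 5 each), a log2 change of -2.27 (SE 0.29, 95% interval -2.87 to -1.67; limma, adjusted p = 0.000659).

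ENSRNOG00000031230 stood at 172, 303, 222, 239 and 147 FPKM at P35 and at 52.6, 58.1, 32.6, 25.4 and 61.7 FPKM at P70. The ages did not overlap, and P70 replicates 3 and 4 were again the lowest. The mean fell from 217 ± 60.9 to 46.1 ± 16.1 FPKM, a log2 change of -2.25 (SE 0.29; limma, adjusted p = 0.000659), and rested on a median of 3455 recovered reads per library at P35 and 509 at P70. ENSRNOG00000031686 had the largest called change on the log2 scale. It stood at 175, 350.4, 158, 239.5 and 284 FPKM at P35 and at 68.3, 65.3, 24.97, 24.6 and 63.2 FPKM at P70, with no overlap. Its mean was 241 ± 79.2 FPKM at P35 and 49.3 ± 22.4 at P70, a log2 change of -2.36 (SE 0.38; limma, adjusted p = 0.00578).

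ENSRNOG00000019183 fell by the largest ratio of means among the called gene IDs, 7.69-fold, from a low level. Its FPKM was 2.61, 6.77, 3.45, 5.53 and 2.80 at P35 and 0.553, 0.678, 0.306, 0.410 and 0.803 at P70. The highest P70 library was below every P35 library. The log2 change was -2.11 (SE 0.32; limma, adjusted p = 0.00296), with a median of 234 reads per library at P35 and 24 at P70. These 4 falls, ENSRNOG00000033465, ENSRNOG00000031230, ENSRNOG00000031686 and ENSRNOG00000019183, were called under every alternative they entered, among them each of the 10 fits without 1 library.

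ENSRNOG00000029886 stood at 87.7, 209, 88.8, 145 and 132 FPKM at P35 and at 51.7, 42.5, 15.5, 10.1 and 42.7 FPKM at P70. P35 replicate 2 was the highest library and P70 replicates 3 and 4 the lowest. Its log2 change was -2.18 (SE 0.41; limma, adjusted p = 0.0236). The call was lost without P35 replicate 2 (limma, adjusted p = 0.1097), P35 replicate 4 (0.0902), P70 replicate 3 (0.0815) or P70 replicate 4 (0.0898).

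ENSRNOG00000031154 stood at 26.6, 58.1, 37.5, 51.3 and 29.8 FPKM at P35 and at 12.4, 11.3, 5.28, 3.67 and 13.8 FPKM at P70. As for ENSRNOG00000029886, P35 replicate 2 was on top and P70 replicates 3 and 4 were at the bottom. Its log2 change was -2.17 (SE 0.39; limma, adjusted p = 0.0171). Leaving out P35 replicate 2, P35 replicate 4, P70 replicate 3 or P70 replicate 4 ended the call, at adjusted p of 0.0618 to 0.0701 (limma).

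ENSRNOG00000000167 was the smallest of the 7, with 2.24, 3.46, 2.55, 2.74 and 2.30 FPKM at P35 and 0.857, 0.862, 1.14, 0.657 and 0.643 FPKM at P70. Here P70 replicate 3 was the highest library of its age, unlike in the other 6. The mean fell from 2.66 ± 0.491 to 0.832 ± 0.203 FPKM, a log2 change of -1.24 (SE 0.22; limma, adjusted p = 0.0139), over a median of 62 reads per library at P35 and 16 at P70. Without P35 replicate 2 the adjusted p was 0.0614 (limma), and with equal FPKM totals it was 0.431.

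**Figure D3:**
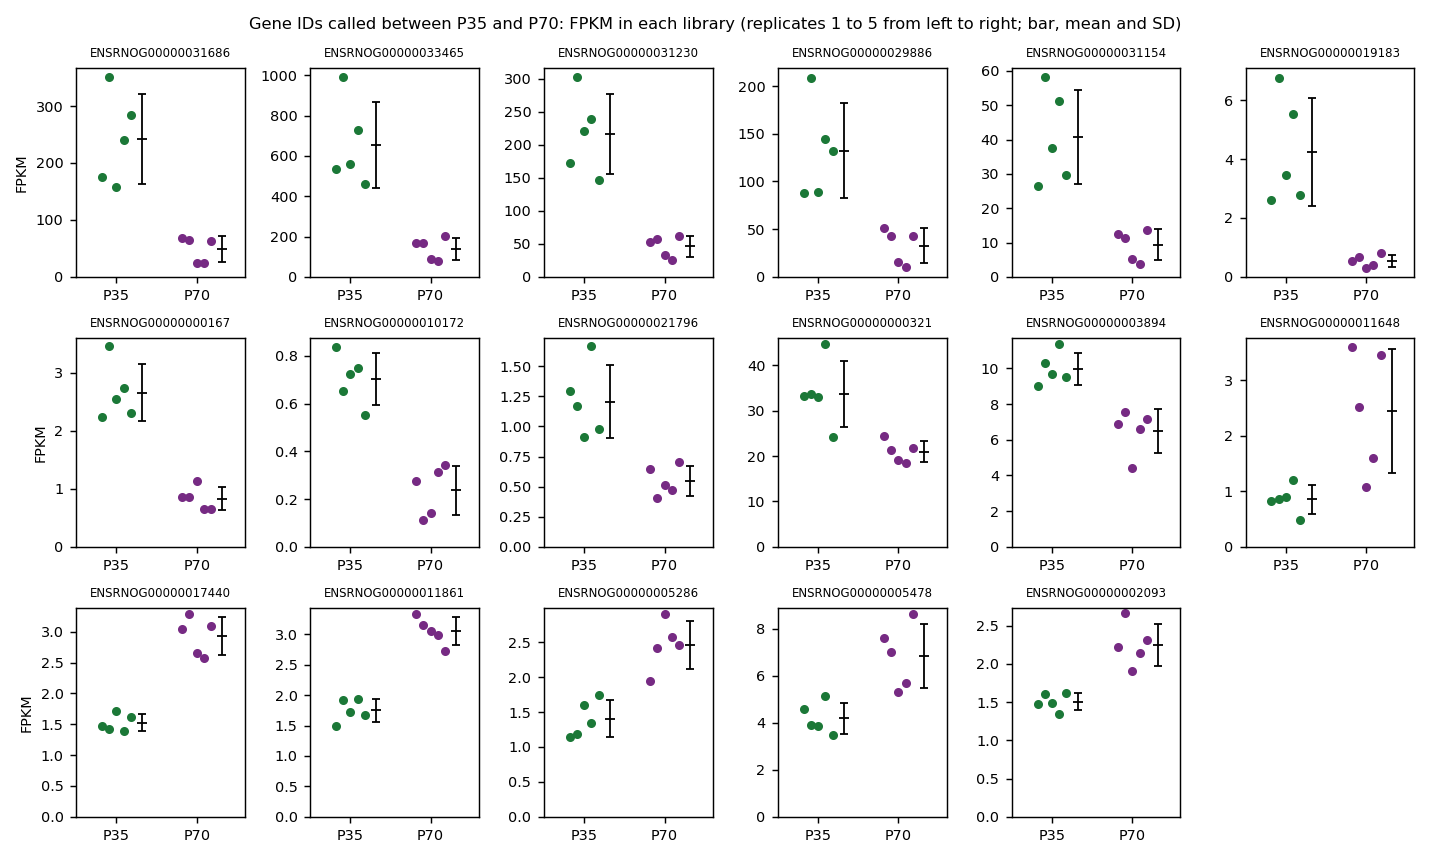
FPKM of the 17 called gene IDs in each of the 10 libraries, 1 panel per gene ID with its own linear axis from 0, replicates 1 to 5 from left to right, and the mean and SD (n = 5) beside the points. In 15 panels the ages do not overlap; the exceptions are ENSRNOG00000000321 and ENSRNOG00000011648.

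Some libraries stood high or low across the 7 larger falls. P35 replicate 2 was the highest P35 library for 7 of 7, with a mean of 0.59 log2 units above the P35 mean over the 7 gene IDs, and P35 replicate 4 stood at 0.22. The other P35 libraries averaged -0.38 (replicate 1), -0.20 (replicate 3) and -0.23 (replicate 5). At P70, replicates 3 and 4, whose titles share the first number 3, averaged -2.55 and -2.82, while replicates 1, 2 and 5 averaged -1.69, -1.71 and -1.64. P70 replicate 4 was among the lowest 2 libraries of its age for 7 of 7 and replicate 3 for 6 of 7. In depth relative to the median library these stood at 1.08 (P35 replicate 2), 1.05 (P70 replicate 3) and 1.04 (P70 replicate 4). The FPKM totals of P70 replicates 3 and 4 were 566227 and 770039, against 944520 to 1024158 in replicates 1, 2 and 5. At P35 the total was 1053858 in replicate 2. The other P35 libraries ran from 569671 (replicate 3) to 1259472 (replicate 4). The part of the FPKM total in these positions was not tested. A single library also led at P21, where replicate 5 was the highest for 7 of 7. Its relative depth of 0.387 was the lowest of the 25 libraries, and the part of depth in that order was not tested.

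**Figure D4:**
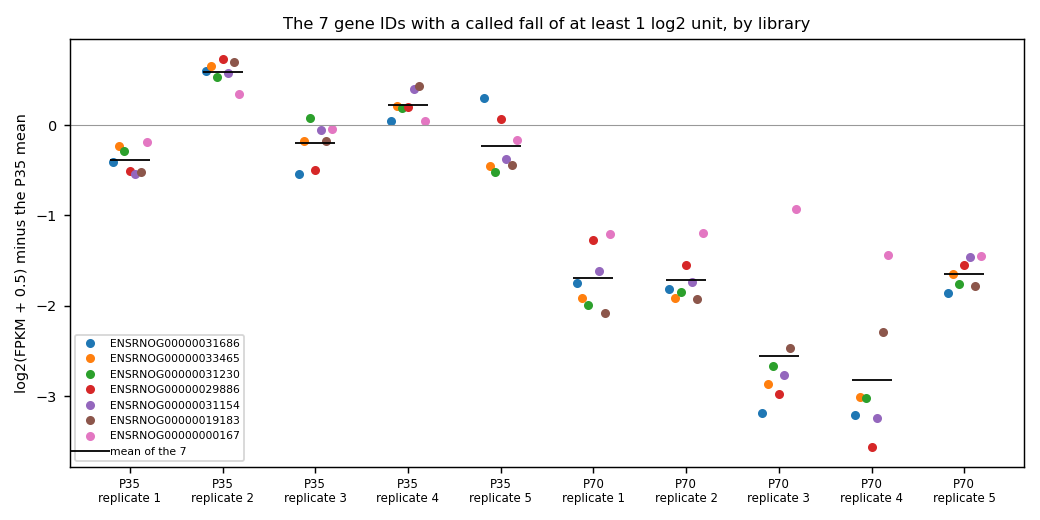
Each point is 1 of the 7 gene IDs that fell by at least 1 log2 unit, in 1 library, as log2(FPKM + 0.5) minus the mean of the 5 P35 libraries for that gene ID; black lines are means of the 7. The lines lie at -0.38 to 0.59 in the P35 libraries and at -2.82 to -1.64 in the P70 libraries, with P70 replicates 3 and 4 lowest.

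In the 4 smaller falls, P35 replicate 2 was the highest P35 library for 0 of 4 and P35 replicate 4 for 3 of 4, while P70 replicates 3 and 4 were the lowest 2 of their age for 2 of 4. ENSRNOG00000010172 had the lowest levels of the 17, at 0.838, 0.650, 0.724, 0.748 and 0.553 FPKM at P35 and at 0.275, 0.112, 0.143, 0.312 and 0.342 FPKM at P70. The ages did not overlap. The mean fell from 0.703 ± 0.107 to 0.237 ± 0.103 FPKM, a ratio of 2.97 that appears as only -0.71 on the log2(FPKM + 0.5) scale (SE 0.12; limma, adjusted p = 0.00599). A pseudocount of 0.1 gave a log2 change of -1.30 and one of 1 gave -0.46, with adjusted p of 0.000382 and 0.0599 (limma). It rested on few reads, a median of 29 per library at P35 and 10 at P70, with 2 in the lowest P70 library. The call held in all 10 fits without 1 library, and was lost on the P35 and P70 libraries alone (limma, adjusted p = 0.316), with the block of title numbers (0.0708) and with equal FPKM totals (1).

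ENSRNOG00000000321 was the more abundant at 33.1, 33.6, 33.0, 44.7 and 24.3 FPKM at P35 and 24.4, 21.3, 19.2, 18.5 and 21.7 FPKM at P70. P35 replicate 5 lay just below P70 replicate 1, so the ages overlapped by 1 library each. The mean fell from 33.7 ± 7.26 to 21.0 ± 2.30 FPKM, a log2 change of -0.65 (SE 0.12; limma, adjusted p = 0.0221). The call was lost without P35 replicate 1, 2 or 4 and without P70 replicate 2, 3 or 4, at adjusted p of 0.0588 to 0.0898 (limma).

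ENSRNOG00000021796 stood at 1.29, 1.17, 0.915, 1.67 and 0.975 FPKM at P35 and at 0.644, 0.403, 0.515, 0.469 and 0.703 FPKM at P70, without overlap. The log2 change was -0.69 (SE 0.13; limma, adjusted p = 0.0225) for a 2.20-fold ratio of means. The same 6 libraries as for ENSRNOG00000000321 each ended the call when left out, at adjusted p of 0.0618 to 0.0946 (limma). A pseudocount of 1 gave 0.0610.

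ENSRNOG00000003894 showed the smallest of the falls, from 9.01, 10.3, 9.69, 11.4 and 9.49 FPKM at P35 to 6.87, 7.57, 4.39, 6.58 and 7.13 FPKM at P70. All P70 libraries lay below all P35 libraries. The mean fell from 9.96 ± 0.899 to 6.51 ± 1.24 FPKM, a log2 change of -0.59 (SE 0.12; limma, adjusted p = 0.0428). The call was kept without P70 replicate 2 and lost without any other of the 10 libraries, at adjusted p of 0.0507 to 0.131 (limma).

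Among the 6 rises, ENSRNOG00000017440 had the lowest adjusted p. It stood at 1.47, 1.42, 1.72, 1.38 and 1.61 FPKM at P35 and at 3.04, 3.29, 2.65, 2.57 and 3.10 FPKM at P70. The ages did not overlap. The mean rose 1.93-fold, from 1.52 ± 0.139 to 2.93 ± 0.306 FPKM, a log2 change of 0.76 (SE 0.11, 95% interval 0.53 to 0.99; limma, adjusted p = 0.00235), over a median of 48 reads per library at P35 and 84 at P70. Of the alternatives only equal FPKM totals ended the call, at an adjusted p of 1 (limma).

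ENSRNOG00000011648 had the largest rise, and the largest SE of the 6 rises. Its FPKM was 0.823, 0.867, 0.894, 1.21 and 0.484 at P35 and 3.61, 2.52, 1.07, 1.59 and 3.46 at P70. P70 replicate 3 lay below P35 replicate 4, so the ages overlapped. Outside P70 this gene ID reached 1 FPKM only in P8 replicate 2 (1.002) and P35 replicate 4. It therefore entered the test only through the P70 libraries, where it was high. The mean rose from 0.855 ± 0.257 to 2.45 ± 1.12 FPKM, a log2 change of 1.05 (SE 0.19; limma, adjusted p = 0.0221). The call was lost without replicate 1, 2 or 5 of either age, at adjusted p of 0.0509 to 0.0771 (limma).

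ENSRNOG00000011861 stood at 1.498, 1.91, 1.72, 1.94 and 1.67 FPKM at P35 and at 3.34, 3.15, 3.06, 2.995 and 2.72 FPKM at P70, without overlap. The mean rose 1.75-fold, a log2 change of 0.66 (SE 0.12; limma, adjusted p = 0.0225). The call was lost without P35 replicate 1, 2 or 3 and without P70 replicate 1, 2, 3 or 4, at adjusted p of 0.0556 to 0.0966 (limma). A pseudocount of 0.1 gave 0.4195.

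ENSRNOG00000005286 stood at 1.15, 1.18, 1.598, 1.35 and 1.75 FPKM at P35 and at 1.95, 2.42, 2.90, 2.58 and 2.46 FPKM at P70. The gap between the ages was narrow, from 1.75 to 1.95 FPKM. The log2 change was 0.64 (SE 0.11; limma, adjusted p = 0.0139). Without P35 replicate 1, P35 replicate 2 or P70 replicate 3 the adjusted p was 0.0515 to 0.0614 (limma).

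ENSRNOG00000005478 was the most abundant of the 6 rises, at 4.59, 3.92, 3.88, 5.12 and 3.46 FPKM at P35 and 7.59, 7.005, 5.31, 5.67 and 8.62 FPKM at P70. P35 replicate 4 and P70 replicate 3 came within 0.2 FPKM of each other without overlap. The log2 change was 0.64 (SE 0.11; limma, adjusted p = 0.0171). It was lost without P35 replicate 2 or P70 replicate 1, 2 or 5, at adjusted p of 0.0532 to 0.0614 (limma).

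ENSRNOG00000002093 had the smallest called change, from 1.47, 1.61, 1.49, 1.34 and 1.62 FPKM at P35 to 2.23, 2.67, 1.90, 2.14 and 2.31 FPKM at P70. The ages did not overlap, with small spreads of 0.114 and 0.277 FPKM (SD). The log2 change was 0.45 (SE 0.09; limma, adjusted p = 0.0428). The call was kept without P35 replicate 5 or P70 replicate 3 and lost without any other library, at adjusted p of 0.0778 to 0.183 (limma). P70 replicates 3 and 4, the lowest for most of the larger falls, were also the lowest 2 of their age for 4 of the 6 rises.

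The earlier ages give the course of the 17 gene IDs up to P35. From P8 to P14, a step that shares no library with P35 or P70, 4 of the 17 gene IDs changed (23.5%, 1 rose and 3 fell), against 28.9% of all gene IDs tested. From P14 to P21, 7 of 17 changed (41.2%, 4 rose and 3 fell), against 17.4% of all. Each gene ID has the same SE in every step, because 1 fit covers all 25 libraries. The 17 were called partly through that SE, so these shares are not an independent comparison with all gene IDs. The steps from P21 and the span from P8 to P70 share libraries with the comparison of P70 with P35, so their values are given side by side only. Their shares of all gene IDs tested were 1.62% for P21 to P35, 6.12% for P21 to P70 and 54.5% for P8 to P70.

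For the larger falls, P70 lay below every earlier age in mean level. ENSRNOG00000033465 averaged 325, 272 and 568 FPKM at P8, P14 and P21, with a rise of 0.97 log2 units from P14 to P21 (limma, adjusted p = 0.0215) and a difference of 0.26 from P21 to P35 (adjusted p = 0.799). ENSRNOG00000031230 averaged 133, 95.3 and 167 FPKM at these ages and rose by 0.89 from P14 to P21 (limma, adjusted p = 0.0381). The other 5 of the larger falls did not pass the test in either of the steps from P8 to P21. Their means at P8, P14 and P21 were 124, 123 and 298 FPKM for ENSRNOG00000031686, 67.5, 73.7 and 146 for ENSRNOG00000029886, and 26.9, 23.5 and 44.0 for ENSRNOG00000031154. ENSRNOG00000019183 averaged 4.24, 5.04 and 10.7 FPKM, and ENSRNOG00000000167 averaged 1.74, 1.73 and 3.10 FPKM. The P21 mean of ENSRNOG00000019183 rested on replicate 5 at 27.1 FPKM, and was 6.63 ± 1.02 FPKM (SD, n = 4) without it. For the other 6 the P21 mean with that library was 1.07 to 1.49 times the mean without it. All 7 thus had their highest mean at P21 or P35 and their lowest at P70. For ENSRNOG00000031686, ENSRNOG00000029886, ENSRNOG00000031154 and ENSRNOG00000000167, the P21 mean lay above the P35 mean only with P21 replicate 5. Without it their P21 means were 201, 108, 30.8 and 2.36 FPKM, against P35 means of 241, 132, 40.7 and 2.66 FPKM.

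The smaller falls had different courses before P35. ENSRNOG00000010172 averaged 10.6, 8.60 and 4.46 FPKM at P8, P14 and P21, and fell at each step up to P35, with log2 changes of -0.31, -0.86 and -2.04 (limma, adjusted p = 0.0472, 1.37e-05 and 9.67e-11). ENSRNOG00000000321 went from 149 FPKM at P8 to 82.1 at P14 and 45.3 at P21, with log2 changes of -0.86 and -0.85 (limma, adjusted p = 9.75e-06 and 3.3e-05), and -0.44 from P21 to P35 (adjusted p = 0.0688). For both, the mean fell from each age to the next. ENSRNOG00000021796 lay between 2.43 and 2.84 FPKM in mean up to P21 and then fell by 0.90 log2 units to P35 (limma, adjusted p = 0.000376). ENSRNOG00000003894 rose by 1.10 log2 units from P8 to P14 (limma, adjusted p = 2.5e-07), averaged 14.8 FPKM at P21 and fell by 0.54 to P35 (adjusted p = 0.0189). Its P70 and P8 levels, 6.51 and 5.77 FPKM, differed by 0.15 log2 units (adjusted p = 0.298).

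Of the rises, ENSRNOG00000011861 and ENSRNOG00000002093 were lowest at the youngest ages. ENSRNOG00000011861 averaged 0.189, 0.185 and 0.797 FPKM at P8, P14 and P21, and rose by 0.90 from P14 to P21 and by 0.81 from P21 to P35 (limma, adjusted p = 2.19e-05 and 0.000704). ENSRNOG00000002093 averaged 0.775, 0.95 and 1.26 FPKM and rose by 0.28 from P14 to P21 (limma, adjusted p = 0.0347). ENSRNOG00000005286 and ENSRNOG00000005478 instead fell at an earlier age, before the rise from P35. The former fell by 0.61 from P14 to P21 (limma, adjusted p = 0.00054) and the latter by 0.54 from P8 to P14 (adjusted p = 0.000832). Their P70 means of 2.46 and 6.84 FPKM stood beside P8 means of 2.60 and 6.77 FPKM, with log2 differences of -0.07 and -0.00 (limma, SE 0.11 each; adjusted p = 0.612 and 0.981). ENSRNOG00000017440 had no called step up to P35, with means of 1.71, 1.70 and 2.13 FPKM at P8, P14 and P21, and neither had ENSRNOG00000011648, with means of 0.797, 0.589 and 0.653 FPKM.

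**Figure D5:**
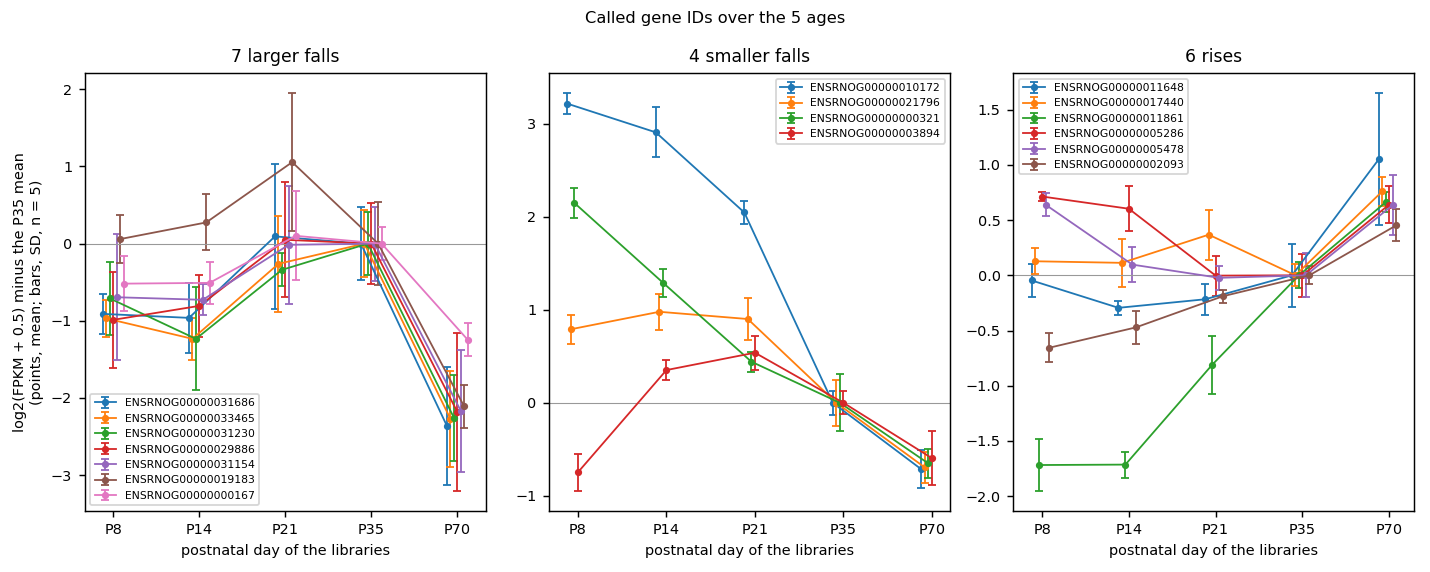
Means and SD (n = 5) of log2(FPKM + 0.5) at each age, less the P35 mean of the same gene ID, for the 7 larger falls, the 4 smaller falls and the 6 rises. At P21 the means of the larger falls lie within 0.34 of P35, except ENSRNOG00000019183 at 1.06 above. Without P21 replicate 5 (not drawn), ENSRNOG00000019183 lies 0.66 above P35 and the others lie at -0.49 to -0.14. At P70 the larger falls lie between -2.36 and -1.24, while ENSRNOG00000010172 falls and ENSRNOG00000011861 rises over several steps.

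The next 10 gene IDs by p did not pass the threshold, and are given as values. Their adjusted p ran from 0.0560 to 0.0863 (limma). Higher at P70 were 6 of them, ENSRNOG00000042376 by 0.62 log2 units, ENSRNOG00000011409 by 0.65, ENSRNOG00000022267 by 0.50, ENSRNOG00000034126 by 0.49, and ENSRNOG00000006628 and ENSRNOG00000015133 by 0.35 each. Of these, ENSRNOG00000011409 entered the test only through its P70 libraries, where it was high. The lower ones had log2 changes of -1.20 for ENSRNOG00000016164, -0.70 for ENSRNOG00000018397, -0.53 for ENSRNOG00000001736 and -0.52 for ENSRNOG00000028622. The last of these stood at 0.788, 1.13, 1.20, 1.09 and 1.12 FPKM at P35 and at 0.668, 0.459, 0.505, 0.722 and 0.607 FPKM at P70, apart in all libraries but at an adjusted p of 0.0560 (limma). The next gene ID in the order of p would have needed a p of at most 6.37e-05 to be called.

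The largest differences of all were not called, and their libraries differed widely within P35. There were 64 gene IDs that differed by at least 1 log2 unit without a call, 23 higher and 41 lower at P70, with a median SE of 0.75 against 0.14 over all gene IDs tested. The 8 of them with a fall of at least 3 log2 units were singled out after their values were seen. In 8 of 8, P35 replicates 4 and 5 were the highest 2 of the 10 libraries, at 206.5 FPKM or more each, while no P70 library exceeded 64.2 FPKM. Such high values were not limited to P35: the highest P14 library stood at 3126 FPKM for ENSRNOG00000034503, 3652 for ENSRNOG00000036542, 1809 for ENSRNOG00000045399 and 415 for ENSRNOG00000035337. ENSRNOG00000044316, the largest, stood at 27.2, 17.5, 793, 5276 and 17776 FPKM at P35 and at 48.4, 42.3, 6.75, 12.4 and 17.7 FPKM at P70. P35 replicates 1 and 2 were thus within the P70 range. Its log2 change of -4.66 had an SE of 1.33 (limma, adjusted p = 0.342). ENSRNOG00000034503 was apart at all libraries, with 149.9, 44.1, 31.9, 7658 and 2882 FPKM at P35 and 16.1, 29.2, 3.40, 21.7 and 21.9 FPKM at P70, and had an adjusted p of 0.721 (limma). The same held for ENSRNOG00000036542, with a log2 change of -4.37 (adjusted p = 0.729). The other 5 of the 8 (ENSRNOG00000044070, ENSRNOG00000034915, ENSRNOG00000045399, ENSRNOG00000035337 and ENSRNOG00000045400) had log2 changes of -4.62, -4.33, -3.93, -3.59 and -3.01 with overlapping libraries.

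One uncalled gene ID bears on the FPKM scale itself. ENSRNOG00000036047 was listed at 0 in P35 replicates 1 and 2 and in P70 replicate 1, and made up 10.3% to 22.4% of the FPKM total in the other 7 libraries. FPKM totals ran from 566227 to 1259472 over the 10 libraries, and the alternative of equal totals, under which all 6 rises lost their call, divides by such sums over the tested gene IDs. The part of this gene ID in that loss was not tested. Among uncalled rises, ENSRNOG00000040520 was apart in all libraries, with 1.10, 1.95, 6.08, 5.41 and 3.32 FPKM at P35 and 27.3, 11.8, 14.0, 11.1 and 10.0 FPKM at P70 (log2 change 2.004, SE 0.54; limma, adjusted p = 0.258).

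How small a change could be seen follows from the SE of each gene ID. The 95% interval of a log2 change had a median half-width of 0.28, and the median smallest change that would have been called was 0.67 log2 units, a 1.59-fold difference (quartiles 1.45 and 1.85). With equal FPKM totals the median half-width was 0.646, so the limits given here hold for FPKM as deposited. For 11351 gene IDs (80.3%) the smallest callable change was under 2-fold, and for 4886 (34.6%) under 1.5-fold. These limits apply to the estimated change, so a true change of the same size could be missed. The intervals themselves lay within 2-fold in either direction for 12917 gene IDs (91.4%) and within 1.5-fold for 11226 (79.5%). These are separate 95% intervals, not adjusted over all gene IDs tested, so some can miss the true change. For each of these gene IDs taken alone, the interval limits the change to that size on the log2(FPKM + 0.5) scale. The fold values of the smallest callable changes are on the same scale, which understates FPKM ratios at low levels.

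The limit depended on the level. All fold values by level are ratios of FPKM with the pseudocount added, not of FPKM itself. They understate FPKM ratios most in the lowest classes, so the classes are compared on that scale only. The median smallest callable ratio was 1.84-fold for the 1047 gene IDs with a mean under 1 FPKM, 1.68-fold for the 1869 from 1 to 2 FPKM and 1.59-fold for the 3281 from 2 to 5 FPKM. It was lowest, 1.53-fold, for the 2966 from 5 to 10 FPKM and the 4040 from 10 to 50 FPKM. At 50 FPKM and over (925 gene IDs) it went back up to 1.76-fold, with an upper quartile of 4.70-fold. In that class lay 4 of the 17 calls (0.432% of its gene IDs, against 0.12% of all). The interval lay within 2-fold for 73.4% of gene IDs under 1 FPKM, 96.5% from 5 to 10 FPKM and 73.1% at 50 FPKM and over.

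Several fits ended calls among the 17, whether they called fewer gene IDs in all or more. Fitted on the 10 libraries of P35 and P70 alone, 7 gene IDs were called (limma), and all 7 were among the 17: ENSRNOG00000033465, ENSRNOG00000031230, ENSRNOG00000031686, ENSRNOG00000019183, ENSRNOG00000000167, ENSRNOG00000017440 and ENSRNOG00000011861. With libraries of the same first title number treated as a random block, 5 of the 17 and no other were called, the first 4 of these and ENSRNOG00000017440. With equal FPKM totals 5 of the 17 were called, the same 4 and ENSRNOG00000029886. Quantile normalization called 28 gene IDs but ended the calls of ENSRNOG00000005286 and ENSRNOG00000011861 (limma, adjusted p = 0.091 and 0.116), and a pseudocount of 0.1 that of ENSRNOG00000002093 (0.0894). Every one of the 381 values of the 17 gene IDs under the alternatives kept its direction. So did all 220 values of the next 10 gene IDs by p, which were not called. The alternatives reuse the same libraries, so a kept direction does not set the 17 apart.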

How the data were processed

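Per the labels' protocols, RNA from prefrontal cortex was depleted of ribosomal RNA and sequenced as single-end reads, which were aligned to rn4 with gsnap. The authors deposited 1 table of FPKM values with 1 row per Ensembl gene ID. BWA 0.6.1, Cufflinks and bedtools are listed for rn4 in the submitters' processing notes, without roles. Not given in the sources used here are the annotation, the use of strand, how multi-mapping reads were treated and whether rows were filtered. Values of near-identical gene copies or of genes that overlap on opposite strands are therefore uncertain.

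Samples were grouped by labelled age. Replicate numbers follow accession order and only name a library. All 25 libraries entered 1 fit in limma 3.58.1 (R 4.3.3) on log2(FPKM + 0.5), with 1 mean per age, 20 residual degrees of freedom, empirical Bayes moderation with a trend on mean level, and two-sided tests with Benjamini-Hochberg adjustment over the 14128 gene IDs tested. The smallest callable change of a gene ID is its SE times the quantile for a p of 6.37e-05. It is a limit on the estimated change. The fit was tested on simulated data.

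A gene ID counted as having whole reads when 95% or more of its nonzero values were whole numbers of reads within a tolerance of 0.05, which held for 67.0% of those tested, and 99.9% of their values were whole. Read numbers cover counting only, since PCR copies cannot be told apart.

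Every called gene ID is given, then the 10 with the next lowest p. Members, lists and rules were chosen with earlier results of these data known. The 21 gene lists and marker lists prepared need gene names and were not analysed here, and no sequences are shown. Alternatives were other pseudocounts, filters, scalings, fits and library weights, and each fit without 1 library. No paired analysis was possible because the first title numbers do not recur between P35 and P70 and the second numbers recur within an age.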

Additional observations from a re-analysis of the deposited data

Results flagged for a closer look

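Among 60 groups of 5 libraries (3 library measures and 27 named gene IDs at each age), 3 held a library far from the other 4 by Dixon's criterion, and chance finds about 1 in 20, here 3. All 3 concern gene IDs that were not called. ENSRNOG00000028622 stood at 0.788 FPKM in P35 replicate 1, against 1.09 to 1.20 in the other P35 libraries. ENSRNOG00000042376 stood at 2.96 FPKM in P35 replicate 3, against 1.75 to 1.998. ENSRNOG00000016164 stood at 1.05 FPKM in P35 replicate 5, against 2.53 to 2.96.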

How the results depend on the processing

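The number of called gene IDs (limma; 17, of which 6 higher and 11 lower) was 27 (10 and 17) with no filter beyond a value above 0, 8 (1 and 7) among gene IDs averaging 5 FPKM or more, 7 (1 and 6) with equal FPKM totals, 39 (14 and 25) with median-of-ratios scaling, 28 (9 and 19) with quantile normalization, 7 (2 and 5) on the P35 and P70 libraries alone, 5 (1 and 4) with the first title number as a block, and 65 (27 and 38) with library quality weights. Leaving out 1 library gave 7 (P35 replicate 2 out) to 27 (P35 replicate 5 out), with 1 to 9 higher and 6 to 18 lower, and 11 without P35 replicate 1 or P70 replicate 2, 3 or 4. The cause was not tested. The median half-width of the 95% interval (0.283) was 0.314 and 0.255 with pseudocounts of 0.1 and 1, 0.256 with no filter, 0.268 for means of 5 FPKM or more, 0.646 with equal totals, 0.252 with median-of-ratios scaling, 0.256 with quantile normalization, 0.309 on the 10 libraries alone, 0.332 with the block, 0.239 with quality weights and 0.292 to 0.306 without 1 library. On gene IDs with whole reads only, chosen after seeing the data, it was 0.303, with 18 called. Of 381 values of the 17 gene IDs, 283 passed the threshold and 0 changed direction. Among 220 values of the next 10 gene IDs by p, 37 passed and 0 changed direction. Among the 10 libraries of P35 and P70, depth was lowest in P70 replicate 2, at a relative depth of 0.447. The lowest read number of a called gene ID in these libraries was 2.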
